A study of Mus musculus with 12 samples.

Results

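Prostaglandin synthesis and inflammatory cytokine expression was described through 10 genes, out of 23667 gene symbols in the deposited table. They were taken by symbol: Ptgs1, Ptgs2 and Ptges, which encode enzymes of prostaglandin E2 synthesis; Hpgd, which encodes the enzyme that inactivates it; Ptger2 and Ptger4, which encode a pair of its receptors; and Il6, Tnf, Lif and Nfkbia. Each symbol was found once, and 9 of the 10 passed the filter on low values; Ptger2 did not.

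The RNA came from mouse mammary tumours of 4T1, a mammary carcinoma line that forms tumours in mice with an intact immune system. The series compared tumours labelled TREX1 KO, made with CRISPR-Cas9 against the cytosolic DNA exonuclease TREX1, with tumours labelled CTRL, each with and without immune checkpoint blockade (ICB). The 4 groups were TREX1 KO with ICB (KO-ICB), TREX1 KO with isotype antibodies (KO-IgG), CTRL with ICB (CTRL-ICB) and CTRL with isotype antibodies (CTRL-IgG), with 3 libraries each, from different tumours per the labels. ICB was 200 ug of anti-PD1 with 100 ug of anti-CTLA4, given 3 times in a week, and IgG animals received matched isotype antibodies over the same period. The genotype is that of the 4T1 cells, so the labels describe no change in host cells, whose RNA is part of every bulk library. The labels state neither whether the KO cells were 1 clone nor the age of the animals.

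Cyclooxygenases convert arachidonic acid into prostaglandin H2. Ptgs1 encodes the form that many cells make steadily, and Ptgs2 (COX-2) the form that is induced by growth factors, cytokines and cell stress. Ptges encodes the inducible microsomal synthase that makes prostaglandin E2, a lipid known in tumours for dampening T cell and natural killer cell responses through the receptors EP2 (Ptger2) and EP4 (Ptger4). NF-kB, which Nfkbia holds inactive, is a known activator of Il6, Tnf, Ptgs2 and Nfkbia itself.

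Values are TPM, each library's transcripts scaled to the same total, a unit corrected for transcript length that carries no sequencing depth. KO-ICB replicates 1 and 2, and KO-IgG replicates 2 and 3, differed so little (robust SD of their log2 ratio 0.0377 and 0.0612, where the 10 remaining pairs of same-group libraries gave 0.216 to 0.598) that each pair was averaged and counted as 1 sample. This left 4 KO and 6 CTRL samples, and p-values measure the spread between these samples. Trex1 itself was at 56.0 to 72.2 TPM in the libraries labelled KO and at 32.8 to 46.2 TPM in CTRL libraries, which goes against a loss of its transcript; an indel can leave a transcript in place, and the direction of every genotype comparison below rests on the labels. KO-IgG replicate 1 stood apart, with 0.661 TPM of the epithelial marker Epcam against 87.1 to 1239 TPM in the other libraries. CTRL-ICB replicate 3 and CTRL-IgG replicate 3 held summed levels of 8540 and 4923 TPM of 10 skin keratinocyte genes, while no other library passed 424 TPM.

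The promoters of 4 of the genes are shown because the results turn on Ptgs2 and Ptges, and because Il6 and Nfkbia, with smaller estimates, carry matches to the NF-kB motif. All 10 genes matched a promoter in RefSeq (GRCm38.p6); windows ran over 300 bases around the start, and capitals mark motif matches, in sequences written 5′ to 3′ on the strand of the gene. The motifs were chosen after the sequences had been seen, and a match is only a match of letters.
Ptgs2, chr1:150099901-150100030, plus strand, with TTGCGCAA in capitals: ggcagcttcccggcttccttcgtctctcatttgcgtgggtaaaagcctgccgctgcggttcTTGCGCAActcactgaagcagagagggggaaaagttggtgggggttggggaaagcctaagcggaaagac
Ptgs2 just after the start, chr1:150100036-150100065, plus strand, with CGTCA and CACGTG overlapping in capitals (the first reads as TGACG on the other strand): caccactaCGTCACGTGgagtccgctttac
Ptges, chr2:30903298-30903367, minus strand, before the RefSeq start, which lies inside the GENCODE span of the gene, with GGGCGG in capitals: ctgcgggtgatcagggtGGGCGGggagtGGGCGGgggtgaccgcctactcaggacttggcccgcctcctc
Il6, chr5:30012974-30013113, plus strand, with CGTCA and GGANNTTCC in capitals: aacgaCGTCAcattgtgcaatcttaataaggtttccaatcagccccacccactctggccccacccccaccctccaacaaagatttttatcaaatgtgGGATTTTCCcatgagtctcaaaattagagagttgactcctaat
Nfkbia, chr12:55492648-55492837, minus strand, with GGANNTTCC and CCGCCC, the complement of GGGCGG, in capitals: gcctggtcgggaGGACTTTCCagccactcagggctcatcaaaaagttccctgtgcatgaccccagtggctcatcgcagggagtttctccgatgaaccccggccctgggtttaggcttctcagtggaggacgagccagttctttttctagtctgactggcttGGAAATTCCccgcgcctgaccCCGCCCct
Searched on both strands over 32851 promoters of the same length, TGACG, the core of a cAMP response element, lay in 20.8%, CACGTG (an E box) in 7.15%, GGANNTTCC (NF-kB) in 4.26%, GGGCGG (a GC box) in 35.7% and TTGCGCAA (a C/EBP palindrome) in 0.183%. Of the 10 genes, TGACG was found in Il6 and Ptgs2, CACGTG and TTGCGCAA in Ptgs2, and GGANNTTCC in Il6, Nfkbia and Tnf.

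Ptgs2 (GRCm38 chromosome 1, 150100031 to 150108227, plus strand) had the largest difference of the 9 tested genes between genotypes. Its levels were 7.64, 7.82 and 4.35 TPM in KO-ICB libraries and 9.73, 5.63 and 6.54 TPM in KO-IgG libraries, against 21.0, 22.8 and 40.5 TPM in CTRL-ICB libraries and 23.4, 46.8 and 11.2 TPM in CTRL-IgG libraries. Every KO library lay below every CTRL library, with the narrowest gap between KO-IgG replicate 1 and CTRL-IgG replicate 3. Means were 6.97 ± 2.30 TPM in KO tumours (SD, n = 4) and 27.6 ± 13.3 TPM in CTRL tumours (SD, n = 6). On log2(TPM + 1), the difference averaged over both treatments was -1.75 ± 0.38 (SE; 95% interval -2.59 to -0.91), and its limma adjusted p of 0.131 over 13886 genes did not pass the threshold of 0.05. In a bulk tumour, fewer cells that express Ptgs2 and less Ptgs2 RNA per cell cannot be told apart.

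Whether Ptgs2 was called depended on how libraries were counted. With all 12 libraries taken as separate tumours, as the labels describe them, the difference was -1.74 with a limma adjusted p of 0.0192. Without KO-IgG replicate 1 and the skin-bearing libraries it was -2.01, and over the 12 libraries without KO-IgG replicate 1 it was -1.84. Both choices were made after seeing the data. In the first, KO-IgG was only the averaged replicates 2 and 3, which is 1 sample. In the second, KO-IgG was these near-identical replicates counted as separate libraries, as KO-ICB replicates 1 and 2 also were. No p-value of Ptgs2 is therefore given for these choices. Across all 20 alternatives the estimate stayed between -2.01 and -1.51. On leaving out 1 CTRL sample at a time, its limma adjusted p ran over 0.0717 to 0.227. Leaving out a KO sample left its group with 1 sample, so only the estimate is given, -1.93 to -1.58. The share of all genes called was 0.108% in the 10 samples, and 0 of the 9 members were among them; 2 members, Ptgs2 and Ptges, had an unadjusted p under 0.05, as did 11.5% of all genes. Over the 12 libraries 3.23% of genes were called, and 1 member, and 1.87% with replicate numbers as a block, again with 1 member. Without KO-IgG replicate 1 and the skin-bearing libraries 3.27% of genes and 1 member were called. Over the 12 libraries without KO-IgG replicate 1, 16.3% of genes and 3 members were called, and for KO-ICB against CTRL-ICB 3.8% of genes and 1 member. Of all genes, 1.52% had every KO sample below every CTRL sample, and of the members Ptgs2 did; 2.05% had every KO sample above, and no member did.

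**Figure D1:**
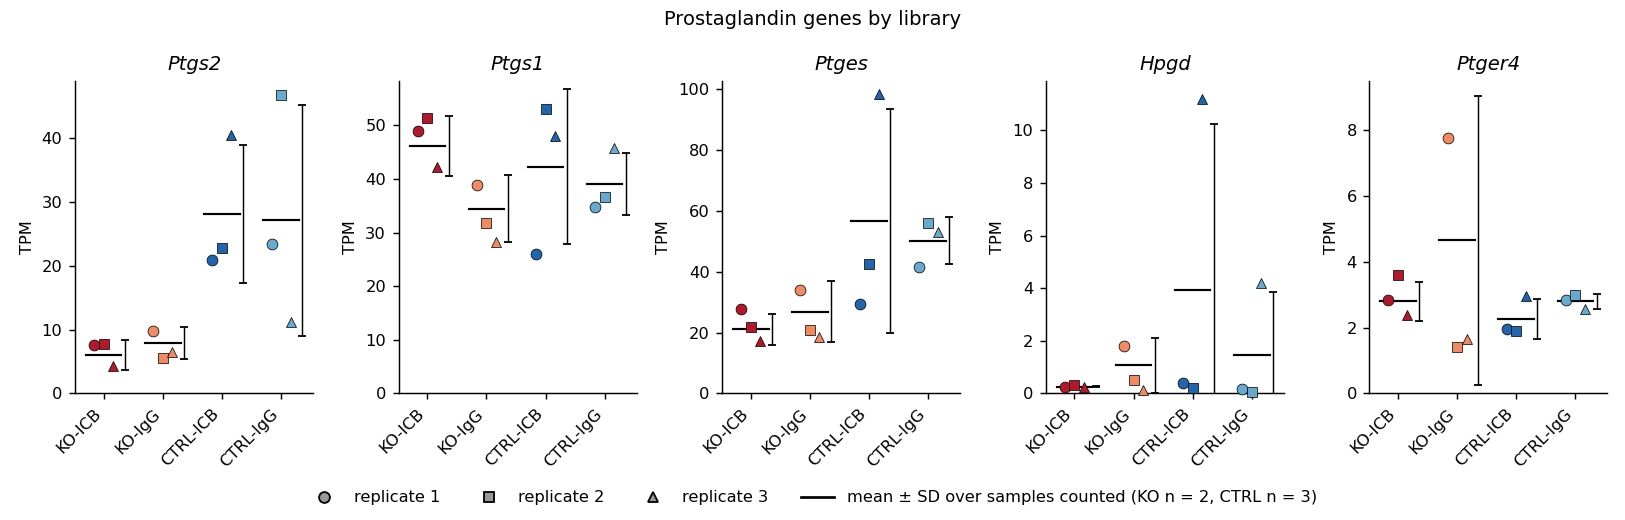
TPM of 5 prostaglandin genes in each library, by group; a symbol marks the replicate, the bar the mean and the whisker the SD over the samples counted (KO n = 2, CTRL n = 3 per group), drawn only above 0. The 6 KO libraries have 4.35 to 9.73 TPM of Ptgs2, below all 6 CTRL libraries, while Ptgs1 overlaps, and 1 CTRL-ICB library sets the height of the Hpgd axis.

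Ptgs1, the other cyclooxygenase (chromosome 2, 36230426 to 36252272, plus strand), showed no such separation. It had 49.0, 51.3 and 42.3 TPM in KO-ICB libraries and 38.9, 31.7 and 28.3 TPM in KO-IgG libraries, against 25.9, 53.1 and 47.9 TPM in CTRL-ICB libraries and 34.8, 36.7 and 45.7 TPM in CTRL-IgG libraries. All 4 groups overlapped, apart from the 2 KO groups, in which ICB libraries were the higher. KO tumours averaged 40.3 ± 8.34 TPM (SD, n = 4) and CTRL tumours 40.7 ± 9.99 TPM (SD, n = 6), with a 95% interval of -0.48 to 0.48 for the log2 difference. Per length, Ptgs1 was the more abundant cyclooxygenase transcript in every KO library, and in every CTRL library but CTRL-IgG replicate 2. The ratio of Ptgs2 to Ptgs1 was 0.178 ± 0.0633 in KO tumours (SD, n = 4) and 0.713 ± 0.359 in CTRL tumours (SD, n = 6). It ran over 0.103 to 0.156 in KO-ICB libraries, 0.178 to 0.250 in KO-IgG, 0.430 to 0.846 in CTRL-ICB and 0.244 to 1.28 in CTRL-IgG. The genotypes crossed only where KO-IgG replicate 1 (0.250) exceeded CTRL-IgG replicate 3 (0.244), and in CTRL-IgG replicate 2 Ptgs2 outnumbered Ptgs1.

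Ptges (chromosome 2, 30889471 to 30929863, minus strand), the step after the cyclooxygenases, was ordered like Ptgs2 but with a smaller difference. It was at 27.6, 21.8 and 17.3 TPM in KO-ICB libraries and 34.0, 20.9 and 18.6 TPM in KO-IgG libraries, against 29.2, 42.4 and 98.5 TPM in CTRL-ICB libraries and 41.4, 56.1 and 53.0 TPM in CTRL-IgG libraries. Of the 6 KO libraries, 5 lay below all CTRL libraries, and KO-IgG replicate 1 lay above CTRL-ICB replicate 1 alone. Means were 23.9 ± 7.36 TPM in KO tumours (SD, n = 4) and 53.4 ± 24.0 TPM in CTRL tumours (SD, n = 6). The log2 difference was -1.07 ± 0.32 (95% interval -1.78 to -0.36; limma adjusted p 0.238), and without CTRL-ICB replicate 3, the library with 98.5 TPM, it was -0.83. Over the 12 libraries without KO-IgG replicate 1, where KO-IgG was only its near-identical pair, the difference was -1.22. Under the 19 remaining alternatives the difference did not pass the threshold. The other prostaglandin E synthases did not share it: Ptges2, a membrane-associated form, differed by -0.19 ± 0.25, and Ptges3, a constitutive cytosolic form that is also an HSP90 co-chaperone, by 0.06 ± 0.13 (log2, limma, neither called). The ratio of Ptges3 to Ptges was 7.27 ± 1.52 in KO tumours (SD, n = 4) and 3.47 ± 1.45 in CTRL tumours (SD, n = 6).

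The genotype difference in Ptgs2 and Ptges was present within each treatment in sign and order, without passing the test. KO-ICB against CTRL-ICB, Ptgs2 differed by -2.03 ± 0.53 (limma adjusted p 0.394) and Ptges by -1.22 ± 0.45 (adjusted p 0.549). KO-IgG against CTRL-IgG, Ptgs2 differed by -1.47 ± 0.53 (adjusted p 0.834) and Ptges by -0.91 ± 0.45 (adjusted p 0.998). In both treatments the samples of the genotypes did not overlap for either gene, where 17% (ICB) and 6.74% (IgG) of all genes had every KO sample below every CTRL sample. Under IgG no member had every KO sample above every CTRL sample, as 7.5% of all genes did. By limma, 0 of 9 members were called under ICB, where 0.0072% of all genes were called and 2 members had an unadjusted p under 0.05, as did 7.98% of genes. Under IgG 0 of 9 were called too, where 0% of all genes were, with 1 member and 5.15% of genes at an unadjusted p under 0.05. The interaction term for Ptgs2 was -0.56 ± 0.75 (95% interval -2.23 to 1.12), so a larger genotype difference under ICB was not shown. It was 0.23 without the 2 skin-bearing libraries.

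**Figure D2:**
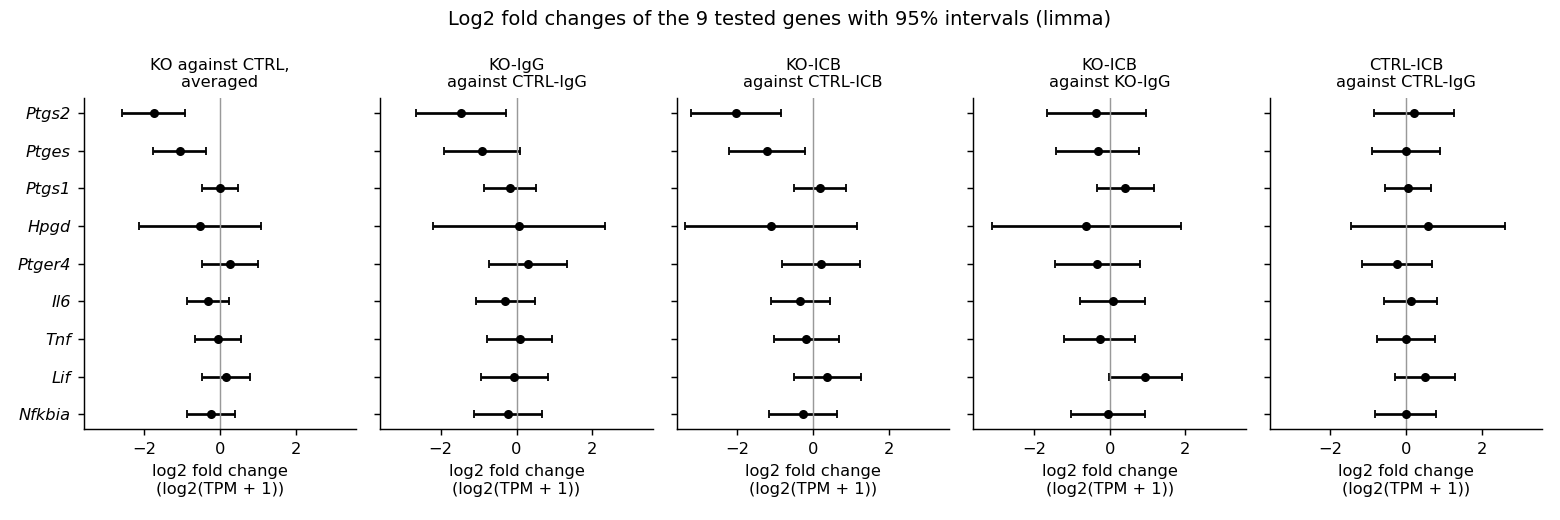
Log2 fold changes (limma, on log2(TPM + 1)) of the 9 tested genes in 5 comparisons, with 95% intervals as bars. Ptgs2 and Ptges lie left of 0 in the 3 genotype comparisons, the intervals of Hpgd are the widest, and Lif lies right of 0 in both comparisons of ICB with IgG.

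Some cell type markers moved with the genotype as well. The summed level of 12 neutrophil genes was 129 to 292 TPM in KO libraries and 263 to 1100 TPM in CTRL libraries; 8 of the 9 tested genes were lower in KO tumours by estimate and 2 by the limma test (median -1.06, against -0.03 for all genes), and Ly6g was listed at 0 in 4 KO libraries and in no CTRL library. The 10 fibroblast genes summed to 439 to 1022 TPM in KO libraries and 810 to 3927 TPM in CTRL libraries, with all 10 estimates negative, none called and none listed at 0. No CTRL library had both sums within the range of KO libraries: CTRL-ICB replicate 1, with 21.0 TPM of Ptgs2, had a neutrophil sum of 263 TPM and a fibroblast sum of 3927 TPM, and CTRL-IgG replicate 2, with 46.8 TPM of Ptgs2, had a neutrophil sum of 723 TPM and a fibroblast sum of 810 TPM. KO-IgG libraries, with neutrophil sums of 129 to 161 TPM, lay below every CTRL library. All 7 endothelial estimates were negative (median -0.50), none called, but under IgG 4 of the 7 were positive. Averaged over treatments, 6 of 10 macrophage estimates (median 0.04) and 5 of 8 tumour epithelial estimates (median 0.08) were positive, none called. Within treatments, 8 of 10 macrophage estimates were positive under IgG and 4 of 10 under ICB. For tumour epithelial genes, 0 of 8 were positive under IgG (median -0.54) and 7 of 8 under ICB (median 0.74). Averaged, 9 of 10 skin keratinocyte estimates were negative (median -2.77) and 7 of 7 skeletal muscle estimates positive (median 1.12), none called. Under IgG 1 of 7 muscle estimates was positive. Immediate early genes, which respond quickly to stress, summed to 377 to 903 TPM in KO libraries and 579 to 1195 TPM in CTRL libraries. KO against CTRL, 9 of 11 estimates were negative (median -0.28) and none was called. Within treatments, all 11 were negative under IgG (median -0.51), while 5 of 11 were negative under ICB (median 0.02). The part of these lists in the Ptgs2 and Ptges values was not tested.

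**Figure D3:**
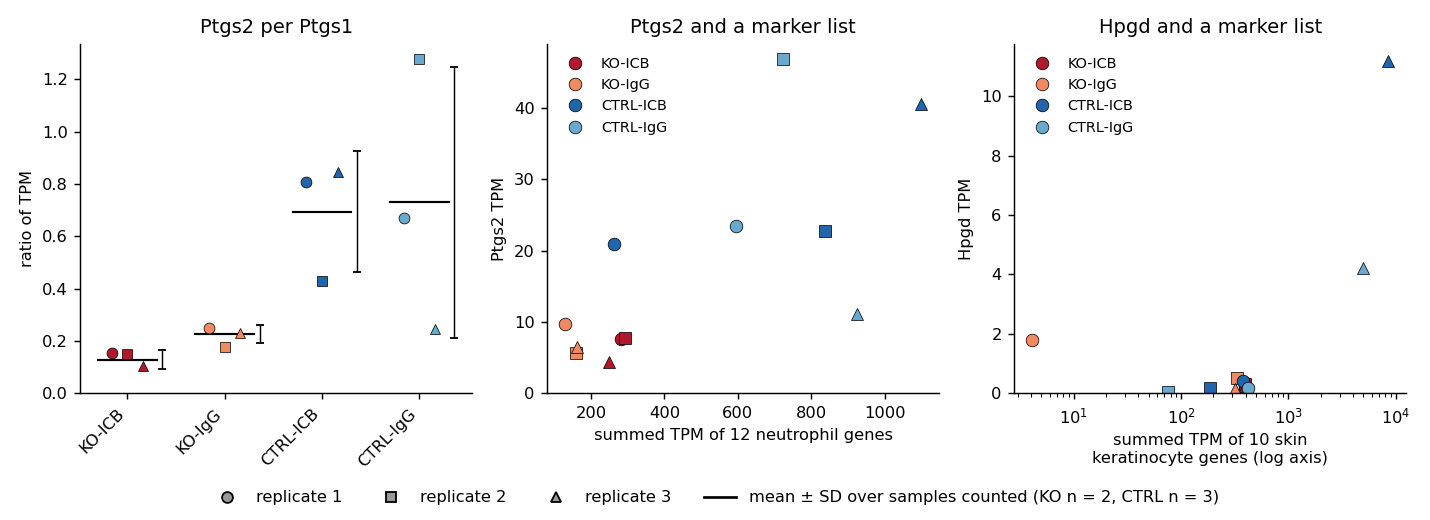
Left, the ratio of Ptgs2 to Ptgs1 TPM by library and group, with mean and SD; middle, Ptgs2 TPM against the summed TPM of 12 neutrophil genes; right, Hpgd TPM against the summed TPM of 10 skin keratinocyte genes on a log axis. KO ratios run over 0.103 to 0.250; neutrophil sums run over 129 to 292 TPM in KO and 263 to 1100 TPM in CTRL libraries; and the 2 libraries highest in Hpgd are the 2 highest in skin genes.

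Hpgd, the prostaglandin dehydrogenase that ends the action of prostaglandin E2 (chromosome 8, 56294585 to 56321043, plus strand), followed single libraries and not groups. It was at 0.254, 0.315 and 0.244 TPM in KO-ICB libraries and 1.80, 0.528 and 0.146 TPM in KO-IgG libraries, against 0.416, 0.198 and 11.2 TPM in CTRL-ICB libraries and 0.176, 0.0405 and 4.20 TPM in CTRL-IgG libraries. The 2 highest values were those of the skin-bearing libraries, which also had 770 TPM (CTRL-ICB replicate 3) and 328 TPM (CTRL-IgG replicate 3) of the basal keratin Krt5, against at most 17.2 TPM elsewhere. The third was KO-IgG replicate 1. The log2 difference KO against CTRL was -0.53 ± 0.72 (limma adjusted p 0.821) and turned to 0.38 without the 2 skin-bearing libraries and to 0.0088 without CTRL-ICB replicate 3 alone. The part of skin in the Hpgd values was not tested.

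The receptors were low, and the sign of the Ptger4 difference rested on 1 library. Ptger4 (chromosome 15, 5206661 to 5244187, minus strand, overlapping Ttc33 on the plus strand, and whether counting used strand is not given in the sources used here) had 2.85, 3.59 and 2.37 TPM in KO-ICB libraries and 7.76, 1.42 and 1.66 TPM in KO-IgG libraries, against 1.95, 1.90 and 2.97 TPM in CTRL-ICB libraries and 2.83, 3.00 and 2.57 TPM in CTRL-IgG libraries. KO-IgG replicate 1 was the highest, and without it the log2 difference of 0.27 ± 0.33 (adjusted p 0.801) turned to -0.18. Ptger2 (chromosome 14, 44988195 to 45003820, plus strand, overlapping the antisense gene Gm17173), with 0.743, 0.678 and 0.359 TPM in KO-ICB, 1.35, 0.479 and 0.513 TPM in KO-IgG, 0.645, 0.436 and 0.225 TPM in CTRL-ICB and 0.290, 0.539 and 0.437 TPM in CTRL-IgG libraries, reached 1 TPM in KO-IgG replicate 1 alone and was not tested; 3 KO libraries, that one and KO-ICB replicates 1 and 2, lay above all CTRL libraries, and the others overlapped. KO-IgG replicate 1 also had the highest sums of 8 T cell genes, 164 TPM, and of 10 macrophage genes, 4503 TPM. Its 6 platelet genes summed to 187 TPM, of which Pf4 alone gave 178 TPM, and 1 of them was listed at 0. The part of its cell makeup in the receptor values was not tested.

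Of the cytokines, Il6 (chromosome 5, 30013114 to 30019981, plus strand), which signals through the gp130 receptor to STAT3, was near 1 TPM in all groups. It had 1.31, 0.852 and 0.581 TPM in KO-ICB libraries and 1.19, 0.669 and a listed 0 in KO-IgG libraries, against 1.24, 1.22 and 1.43 TPM in CTRL-ICB libraries and 1.31, 1.60 and 0.559 TPM in CTRL-IgG libraries. The 2 KO-ICB samples, 1 of them the averaged pair, lay below all CTRL-ICB samples, as did 17% of all genes, but KO-ICB replicate 1 on its own did not. The log2 difference KO against CTRL was -0.32 ± 0.25 (95% interval -0.87 to 0.23; limma adjusted p 0.667), and its sign was negative under all 19 alternatives that gave a value. At these levels the pseudocount of 1 understates a fold change: with 0.1 the difference was -0.64.

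Tnf (chromosome 17, 35199381 to 35202007, minus strand), the cytokine that activates NF-kB through its receptors, did not separate any groups. It was at 1.84, 1.38 and 0.904 TPM in KO-ICB libraries and 2.25, 1.07 and 1.36 TPM in KO-IgG libraries, against 0.640, 1.71 and 2.59 TPM in CTRL-ICB libraries and 1.37, 1.40 and 1.86 TPM in CTRL-IgG libraries. KO tumours averaged 1.49 ± 0.580 TPM (SD, n = 4) and CTRL tumours 1.59 ± 0.646 TPM (SD, n = 6), a log2 difference of -0.05 ± 0.27 with a 95% interval of -0.65 to 0.56 and no fixed sign across alternatives.

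Lif (chromosome 11, 4257557 to 4272514, plus strand), an IL-6 family cytokine, had the largest estimate of the 9 tested genes for ICB against IgG in KO tumours. It had 38.0, 40.0 and 29.8 TPM in KO-ICB libraries and 10.2, 29.9 and 28.0 TPM in KO-IgG libraries, and 20.3, 29.7 and 29.4 TPM in CTRL-ICB libraries against 23.4, 15.9 and 15.8 TPM in CTRL-IgG libraries. KO-ICB samples lay above KO-IgG samples, although KO-ICB replicate 3 (29.8 TPM) was not above KO-IgG replicate 2 (29.9 TPM) taken as a library of its own; CTRL-ICB and CTRL-IgG overlapped through CTRL-ICB replicate 1. KO-ICB samples also lay above CTRL-ICB samples, as for 17% of all genes, by a margin of 29.8 against 29.7 TPM. ICB against IgG, the log2 difference was 0.94 ± 0.43 in KO tumours (95% interval -0.02 to 1.91) and 0.51 ± 0.35 in CTRL tumours, and limma called neither (adjusted p 0.998 and 1.0). The value in KO tumours ran over 0.23 to 1.65 when samples were left out in turn, and it was 0.23 without KO-IgG replicate 1, where Lif was lowest. Beside it, 8 skeletal muscle genes summed to 84.1 to 88.9 TPM in KO-ICB libraries and 8.66 to 15.0 TPM in KO-IgG libraries (7 of 7 tested estimates positive, none called, 7 at an unadjusted p under 0.05; Tnnc2 was listed at 0 in all KO-IgG libraries, and Acta1 and Myh4 in some). The 8 tumour epithelial genes summed to 4917 to 5332 TPM in KO-ICB libraries and 1477 to 4926 TPM in KO-IgG libraries, lowest in replicate 1 (8 of 8 positive, median 2.23, none called). The part of both lists in the Lif and Ptgs1 values was not tested. KO against CTRL, the difference was 0.16 ± 0.28 (adjusted p 0.864). It was -0.20 without the averaged KO-IgG replicates 2 and 3. Over the 12 libraries without KO-IgG replicate 1, which left only the near-identical pair in KO-IgG, it was 0.54.

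**Figure D4:**
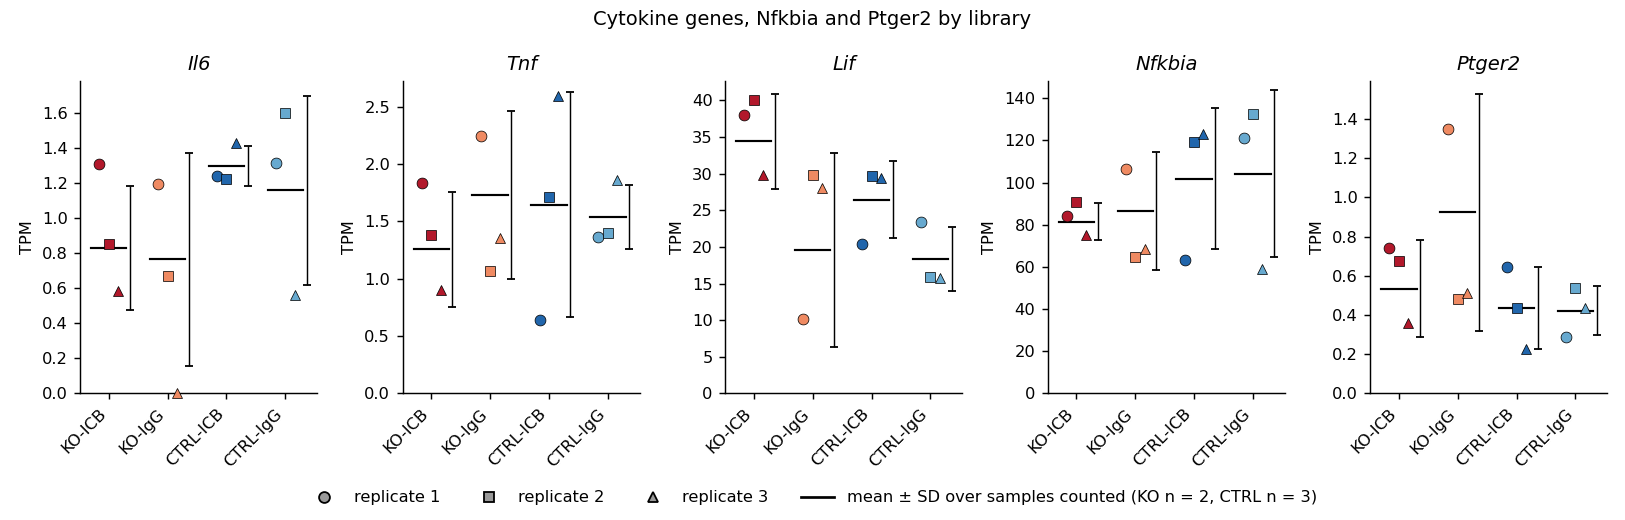
TPM of Il6, Tnf, Lif, Nfkbia and Ptger2 in each library, by group, with symbols for replicates and bars and whiskers for mean and SD over the samples counted (KO n = 2, CTRL n = 3 per group). Il6, Tnf and Ptger2 lie at a few TPM or less in every library; Lif is lowest, at 10.2 TPM, in KO-IgG replicate 1.

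Nfkbia (chromosome 12, 55489410 to 55492647, minus strand), which encodes the inhibitor IkB-alpha and is itself switched on by NF-kB, was the most abundant of the 10 genes. Its levels were 84.2, 90.9 and 75.3 TPM in KO-ICB libraries and 106, 64.8 and 68.3 TPM in KO-IgG libraries, against 63.2, 119 and 123 TPM in CTRL-ICB libraries and 121, 132 and 58.9 TPM in CTRL-IgG libraries. Each CTRL group held 2 libraries above all KO libraries and 1 below all of them. KO tumours averaged 83.9 ± 17.2 TPM (SD, n = 4) and CTRL tumours 103 ± 32.9 TPM (SD, n = 6), a log2 difference of -0.24 ± 0.28 (95% interval -0.88 to 0.39; limma adjusted p 0.790) that was negative under all 20 alternatives.

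Over the 10 samples the mean level per length was 95.4 TPM for Nfkbia, 41.6 for Ptges, 40.5 for Ptgs1, 24.2 for Lif, 19.4 for Ptgs2, 3.01 for Ptger4, 1.89 for Hpgd, 1.55 for Tnf, 1.05 for Il6 and 0.549 for Ptger2. Each pair of neighbours in this order overlapped in its ranges over the 12 libraries.

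Treatment moved no member past the test. ICB against IgG, limma called 0 of 9 members in KO tumours, where it called 0% of all genes and 0 members against 3.19% of genes had an unadjusted p under 0.05. In CTRL tumours it called 0 of 9 as well, with 0% of all genes called and 0 members against 1.27% of genes at an unadjusted p under 0.05. The interaction gave 0 of 9 members and 0% of genes, with 0 members and 1.41% of genes at an unadjusted p under 0.05. KO-ICB samples lay above KO-IgG samples for Lif and Ptgs1 and below them for Hpgd, where 17.5% of all genes lay above and 12.8% below. For Hpgd this rested on the averaged pair, since KO-IgG replicate 3 (0.146 TPM) was below every KO-ICB library (0.244 to 0.315 TPM). No member separated CTRL-ICB from CTRL-IgG, where 1.49% lay above and 3.51% below. KO groups of 2 samples each limit what the comparison of KO-ICB with KO-IgG can show.

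Across the 4 wider pathway lists, 1 gene was called for KO against CTRL, and estimates went both ways in each list. Of all 13886 genes tested, 6409 estimates were positive and 7477 negative. An unadjusted p under 0.05 (limma) was reached by 11.5% of all genes, and 0.108% were called. Of 16 tested genes of arachidonic acid supply and of prostanoid and leukotriene synthesis, 8 estimates were positive and 8 negative for KO against CTRL, with a median of -0.04 (all genes -0.03), and none was called, 6 having an unadjusted p under 0.05. The genes with the smallest p were mostly of the lipoxygenase branch, which did not rise as a whole. Alox5ap (-0.38 ± 0.26) and Lta4h (-0.13 ± 0.13), of the same branch, had negative estimates, neither called (log2, limma). Alox15, a lipoxygenase, averaged 3.83 ± 1.55 TPM in KO and 0.787 ± 0.645 TPM in CTRL tumours (log2 difference 1.44 ± 0.25, limma adjusted p 0.0876). Ltc4s, the leukotriene C4 synthase, averaged 28.2 ± 8.98 TPM in KO and 10.8 ± 4.97 TPM in CTRL tumours (1.38 ± 0.36, adjusted p 0.191), and Alox5, which starts leukotriene synthesis, 5.41 ± 1.41 TPM in KO and 3.03 ± 0.638 TPM in CTRL tumours (0.66 ± 0.22, adjusted p 0.297). Pla2g4a, the phospholipase that releases arachidonic acid, averaged 23.3 ± 9.35 TPM in KO and 33.0 ± 4.02 TPM in CTRL tumours (-0.55 ± 0.19, adjusted p 0.321). Beside leukotriene genes, 8 mast cell and basophil genes summed to 175 to 485 TPM in KO and 47.9 to 170 TPM in CTRL libraries. Of these, 1 of 8 was called higher, 6 of 8 were positive and none was listed at 0. The 2 negative ones were Mcpt8 (-1.12 ± 0.37) and Hdc (-0.53 ± 0.37), neither called (log2, limma), so the list did not rise as a whole. Its part in the leukotriene genes was not tested.

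Of 6 tested genes for prostanoid receptors, transport and breakdown, 2 estimates were positive and 4 negative (median -0.20), and 1 was called. Ptgfrn, a membrane protein named for inhibiting the prostaglandin F2-alpha receptor, had 38.3 to 54.1 TPM in KO libraries and 82.3 to 119 TPM in CTRL libraries, which did not overlap. It fell by 1.16 ± 0.17 on the log2 scale (limma adjusted p 0.0480), a call that held under 7 of 20 alternatives (adjusted p 0.00045 to 0.298) and was lost on leaving out any sample but KO-IgG replicate 1. The transporters Abcc4 (export) and Slco2a1 (uptake) differed by -0.34 ± 0.20 and -0.34 ± 0.24 and the EP1 receptor gene Ptger1 by 0.24 ± 0.22, none of them called (log2).

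Among 25 genes of IL-6 family and TNF receptors and signalling, 10 estimates were positive and 15 negative (median -0.11) and none was called, with 6 at an unadjusted p under 0.05. Those with the smallest p went both ways. Ltb, the lymphotoxin beta chain, averaged 29.5 ± 10.1 TPM in KO and 10.8 ± 3.03 TPM in CTRL tumours (1.36 ± 0.25, limma adjusted p 0.103). Socs1, an inhibitor of cytokine signalling that interferons induce, averaged 35.5 ± 9.34 TPM in KO and 15.0 ± 4.24 TPM in CTRL tumours (1.19 ± 0.26, adjusted p 0.131), and Tnfsf10, which encodes TRAIL, 24.9 ± 6.73 TPM in KO and 13.5 ± 4.31 TPM in CTRL tumours (0.85 ± 0.23, adjusted p 0.201). Il11, a gp130 cytokine, averaged 1.36 ± 0.426 TPM in KO and 3.53 ± 1.64 TPM in CTRL tumours (-0.88 ± 0.30, adjusted p 0.316). The summed level of 8 T cell genes was 62.5 to 164 TPM in KO libraries and 27.0 to 50.1 TPM in CTRL libraries, with 8 of 8 positive, none called, 7 at an unadjusted p under 0.05 and none listed at 0. The 6 natural killer cell genes summed to 45.8 to 98.8 TPM in KO libraries and 16.4 to 23.2 TPM in CTRL libraries, with 6 of 6 positive (median 1.32), none called, 6 at an unadjusted p under 0.05 and none listed at 0. The part of both lists in the Ltb, Socs1 and Tnfsf10 values was not tested.

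Among 31 tested NF-kB factors, inhibitors and targets, 10 estimates were positive and 21 negative (median -0.15), none was called and 3 had an unadjusted p under 0.05. Il1b, the interleukin 1 beta gene, averaged 81.6 ± 13.8 TPM in KO and 129.5 ± 22.8 TPM in CTRL tumours (-0.66 ± 0.18, limma adjusted p 0.195), and Ikbkb, the kinase that marks IkB-alpha for breakdown, 48.5 ± 9.70 TPM in KO and 33.6 ± 4.94 TPM in CTRL tumours (0.51 ± 0.17, adjusted p 0.293). Csf1, the macrophage growth factor gene, differed by -0.82 ± 0.35 (adjusted p 0.409) and Tnfaip3, which encodes the NF-kB inhibitor A20, by -0.46 ± 0.24 (adjusted p 0.508). For the 9 tested members themselves, 3 estimates were positive and 6 negative, with a median of -0.24.

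**Figure D5:**
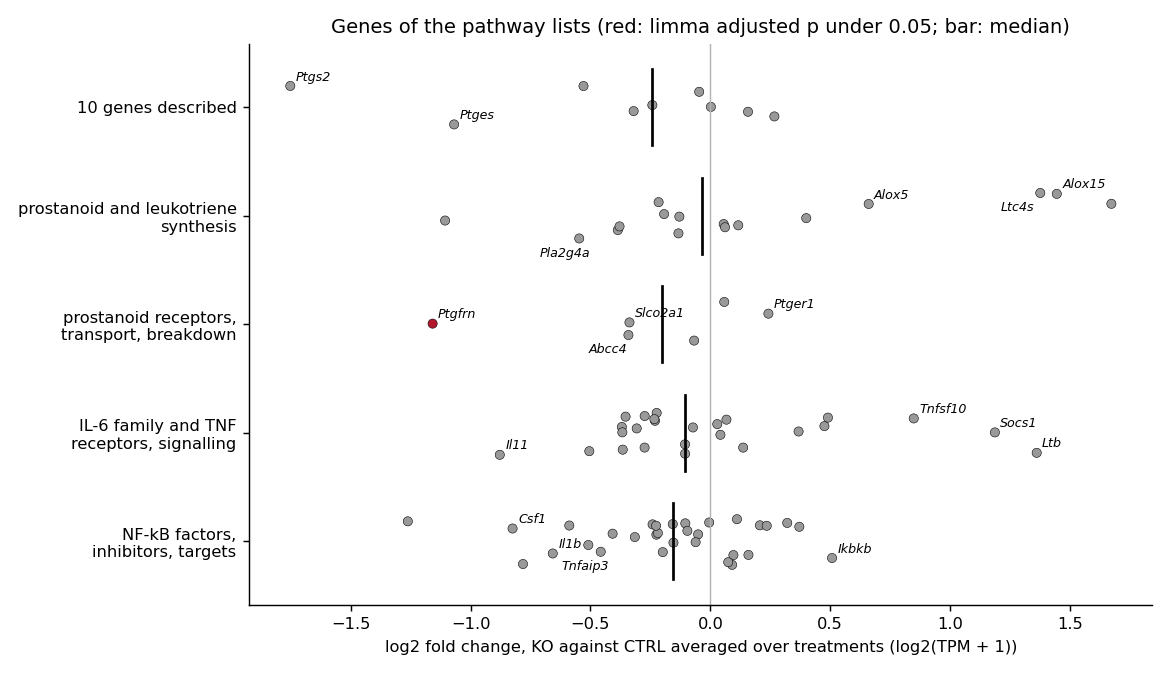
Log2 fold changes KO against CTRL, averaged over treatments, of the 9 tested members and of the genes in 4 pathway lists. Each dot is a gene, black bars are medians, and red marks a limma adjusted p under 0.05. Names mark Ptgs2, Ptges and the 4 genes of each pathway list with the smallest p. Medians lie between -0.24 and -0.04, and Ptgfrn is the 1 gene past the threshold.

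Profiles over the 10 samples were compared after centring each gene and dividing by its SD, as a description with no test. Closest to Ptgs2 were D030056L22Rik and Tiparp, a mono-ADP-ribosyltransferase gene induced by the aryl hydrocarbon receptor, with a mean absolute difference of 0.185 and 0.199 SD, against a median of 1.05 SD over all genes. Among the members, Ptges (0.438 SD, rank 228) and Il6 (0.476 SD, rank 373) were the nearest to Ptgs2. Closest to Ptges were Tacc2 and Slc39a6 (0.161 and 0.195 SD), to Ptgs1 Bcl2l2 and Tnfrsf11b (0.273 and 0.356 SD), to Hpgd Susd2 and Cbr3 (0.163 and 0.195 SD), and to Ptger4 Bcap29 and Cgas (0.185 and 0.188 SD). For the cytokine genes they were Adam9 and Itpripl2 for Il6 (0.164 and 0.189 SD), Actr8 and Dgkq for Tnf (0.230 and 0.245 SD), and Bcar1 and Gm7045 for Lif (0.212 and 0.219 SD). For Nfkbia they were Osmr, a gp130-partner receptor gene, and Dag1 (0.211 and 0.238 SD).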

How the data were processed

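Polyadenylated RNA of 12 4T1 mammary tumours was sequenced, per the labels' protocols. The deposited table gives TPM per gene symbol, which the authors obtained with kallisto on mouse build GRCm38, per the submitters' processing notes; the sources used here give neither its version, nor its transcript set, nor its use of strand. Every library totals 1000000, so depth is unknown and no counting interval is given.

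Libraries were grouped by their titles. Pairs within a group with a robust SD of the log2 ratio below 0.1, over genes above 300 TPM in both, were averaged and counted as 1 sample, which left 10. The 13886 genes that reached 1 TPM in 3 or more libraries were fitted on log2(TPM + 1) as 4 group means with limma 3.58.1 (R 4.3.3; intensity trend, robust), all groups sharing the spread, and p-values were Benjamini-Hochberg adjusted over all of them, with a threshold of 0.05. The fit was tested on simulated data. Low genes have understated fold changes on this scale.

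The members, gene lists and pair rule were chosen with earlier results of these data known. All members are named. Of each pathway list, the 4 genes with the smallest p for KO against CTRL are named. Ptges2, Ptges3, Alox5ap and Lta4h were named after their values were seen. For each tested member, the 2 genes of most similar profile are named. Coordinates are from GENCODE M21, promoters from RefSeq. Alternatives were all 12 libraries, a replicate block, pseudocount 0.1, no filter or 5 TPM, median centring, quantile normalization, fits of the compared groups alone, and samples left out.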

Additional observations from a re-analysis of the deposited data

Results flagged for a closer look

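Of 20 sets of samples (10 genes in 4 KO and 6 CTRL samples), 3 held a sample far from its neighbours by Dixon's criterion, which chance alone meets in about 1 of 20. Hpgd was highest in KO-IgG replicate 1, at 1.80 TPM, among the 4 KO samples. Hpgd was also highest in CTRL-ICB replicate 3, at 11.2 TPM, among the 6 CTRL samples. Il6 was lowest in CTRL-IgG replicate 3, at 0.559 TPM, among the 6 CTRL samples.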

How the results depend on the processing

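For KO against CTRL averaged over treatments, 0 members were called in the 10 samples and on leaving out any sample in turn (0 to 0). The count was 1 (Ptgs2) over all 12 libraries and 1 with the replicate block (Ptgs2, limma adjusted p 0.0403). Over the 12 libraries without KO-IgG replicate 1 it was 3 (Ptgs2, Ptges, Lif), with the libraries of each near-identical pair counted separately. There, KO-ICB against CTRL-ICB also gave 1 (Ptgs2, -1.91). Without the skin-bearing libraries and KO-IgG replicate 1, KO-IgG was the averaged pair alone, and the Ptgs2 difference was -2.01. Fewer or more samples enter these fits, and the choices without KO-IgG replicate 1 were added after seeing the data. Over all genes, 15 were called in the 10 samples, 449 over the 12 libraries and 259 with the block. Ptgs2, Ptges, Il6 and Nfkbia kept their sign under all alternatives run; samples left out gave -2.00 to -1.51 for Ptgs2 and -1.26 to -0.83 for Ptges.

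The signs of some differences turned, and the cause was not tested. Over all 12 libraries, with and without the block, Ptgs1 was -0.0087 and without KO-IgG replicate 1 -0.070. Without the skin-bearing libraries Hpgd was 0.38, Tnf 0.13 and the Ptgs2 interaction 0.23; without KO-IgG replicate 1 as well, Hpgd was 0.12, Ptger4 -0.13 and the interaction 0.53. Ptger4 was -0.16 over the 12 libraries without KO-IgG replicate 1, and Tnf 0.015 with median centring. Samples left out gave -0.15 to 0.098 for Ptgs1, -0.83 to 0.0088 for Hpgd, -0.18 to 0.71 for Ptger4, -0.20 to 0.092 for Tnf, -0.20 to 0.51 for Lif and -1.05 to -0.060 for the interaction.

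Replicate numbers did not pair the samples: deviations of same-numbered libraries correlated at -0.36 to 0.27 over 18 pairs, 5 of them above 0.1, and 15 of 36 were highest with their own number. Depth is unknown, and low levels (Il6, Tnf, Hpgd, receptors) give wide relative errors. A filter of 5 TPM gives no value for Hpgd, Ptger4, Il6 and Tnf.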
